A study of Mus musculus with 4 samples.

Results

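The clustered protocadherins were described here in cultured hair follicle mesenchymal cells of the mouse. They were the 58 of 51826 rows of the gene count table whose symbol began with Pcdha, Pcdhac, Pcdhb, Pcdhga, Pcdhgb or Pcdhgc followed by a number. These were 14 alpha genes, 22 beta genes and 22 gamma genes, the gamma genes being 12 of type A, 7 of type B and 3 of type C. The study asked how serial passage alters dermal papilla cells (DPCs), the mesenchyme at the base of the follicle, and dermal sheath cells (DSCs), the mesenchyme that wraps it. Both were grown from whisker (vibrissal) follicles of C57BL/6J mice aged 5 to 6 weeks that carried an EGFP transgene, so all groups shared the transgene, and the labels gave their genotype as WT. RNA was sequenced from both cell types at low passage (passage 3) and at high passage (passage 9), with 1 library in each group. There was therefore no replicate check of any difference, and whether the passages came from the same animals or cultures was not given in the sources used here. The intervals below are 95% exact (Clopper-Pearson) intervals that cover counting error only, and where a pair of values is given for a cell type, passage 3 comes first and passage 9 second.

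Clustered protocadherins are cell surface proteins of the cadherin superfamily that bind the same isoform on a neighbouring cell. In the alpha and gamma clusters each gene supplies its own variable first exon, which carries the extracellular and membrane-spanning parts, and is spliced to constant exons that encode a shared cytoplasmic end. A beta gene is a complete coding exon with no constant part. The family is best known in neurons, where each cell uses a few isoforms picked promoter by promoter, with CTCF and cohesin looping an enhancer to the chosen promoter, and where matching isoforms let a cell recognise its own branches. Type C genes lie at the end of the alpha and gamma clusters and are less subject to that choice.

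All 58 genes lay on the plus strand of chromosome 18 and their positions in the file were those of GRCm38 in the GENCODE M21 annotation. The alpha genes ran from 36930184 to 37187661, the beta genes from 37264938 to 37524479 and the gamma genes from 37661793 to 37841873. The 3 constant exons, at the 3′ end of the gene group, came to 2860 bases in alpha and 2119 bases in gamma, and the alpha and gamma gene models shared between 27.8% and 66.8% of their exonic bases with other members. How reads on those exons were assigned was not given in the sources used here. Alpha members stood at 0 counts in libraries in which other alpha members were counted, so constant-exon reads were not credited to every member. A change of a single alpha or gamma gene therefore rests partly on that assignment, more so than the sum over a cluster does.

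The 4 libraries held between 34981284 and 47604059 counts, and levels below are CPM, the counts scaled to library size by the TMM method. A count of 0 allows up to 3 counts, or 0.0658 to 0.0836 CPM. Folds and their intervals (on the log2 scale) were taken from the scaled counts, whereas log2 differences were taken after adding a prior count of 2 and are therefore nearer to 0 for genes with few counts. Among cell type markers, the fibroblast genes Col1a1, Col1a2, Col3a1, Pdgfra, Vim and Dcn had at least 3292 counts in each library and Lum had 0 to 109, with 45727 and 5565 counts of Col3a1 in DPCs and log2 differences with passage of -2.57 for Col1a1 in DPCs and 4.50 for Dcn in DSCs. The sheath marker Acta2 had at least 67135 counts in each library, the DPC libraries included, with 262118 and 67135 in DPCs. Of the 5 sheath markers, Itga8 was higher at passage 9, by log2 2.38 in DPCs and 3.53 in DSCs. Acta2, Tagln, Mylk and Cnn1 were lower at passage 9 in DPCs (log2 -1.93, -1.65, -2.82 and -1.69). In DSCs the values of these 4 genes were -0.40, -0.15, 0.80 and 0.99. Of the papilla markers, Sox2, Vcan and Crabp1 were counted in all 4 libraries, at 178 counts or more, whereas Wif1 was at 0 in all 4, Alpl stood at 6 to 23 counts and Corin at 0 to 10. Lef1 had 508 and 2 counts in DPCs and 101 and 55 in DSCs, and Hey1 had 85 and 6 in DPCs and 72 and 44 in DSCs. Of the 10 neuron markers, Rbfox3, Snap25 and Nefl were at 0 in all 4 libraries, whereas Tubb3 had 482 and 33 counts in DPCs and 670 and 460 in DSCs, and Stmn2 had 50 and 0 in DPCs and 61 and 16 in DSCs. The Schwann and neural crest markers Sox10, Ngfr and Cdh19 were counted at passage 3 and were at 0 in both passage 9 libraries, and the summed level of the 10 Schwann markers was 16.0 and 6.86 CPM in DPCs and 38.3 and 11.0 in DSCs. The other marker sums ranged over the libraries from 1.78 to 20.1 CPM for 10 neuron markers, 0.679 to 51.4 for 8 keratinocyte markers (50.6 of the highest sum being Dsp, with Krt5, Krt14, Krt15 and Cdh1 at 0 in all 4 libraries), 65.7 to 175 for 8 immune markers, 0.462 to 1.03 for 5 melanocyte markers and 0.111 to 5.64 for 5 endothelial markers. The immune sum was 123 and 65.7 CPM in DPCs and 175 and 95.3 in DSCs. Endothelial and neuron sums were also lower at passage 9 in both cell types, whereas keratinocyte and melanocyte sums were higher. The part of these cells in the protocadherin levels was not tested, and in bulk RNA fewer cells of a type and less RNA per cell cannot be told apart.

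Gamma genes carried most of the family's reads. Summed over the 22 genes, the gamma level was 570 and 1172 CPM in DPCs and 573 and 757 in DSCs. Beta genes summed to 34.0 and 93.0 CPM in DPCs and 53.8 and 65.8 in DSCs, and alpha genes to 3.91 and 8.72 CPM in DPCs and 2.93 and 3.01 in DSCs. The low-passage cells of both types thus had like gamma totals, and each of the 3 sums was highest in high-passage DPCs.

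Detection also differed between the clusters. All 22 gamma genes were counted in each of the 4 libraries, with 8 counts as the lowest value and a mean of at least 100 counts for every gene. Of the 22 beta genes, 18 were counted in all 4 libraries, and Pcdhb1 was at 0 throughout. Among the 14 alpha genes, 5 were at 0 in every library, namely Pcdha1, Pcdha2, Pcdha6, Pcdha7 and the type C gene Pcdhac1. Changes were examined for genes with a mean of at least 10 counts over the 4 libraries, which were 4 alpha, 18 beta and 22 gamma genes, together 44 of the 58 members and 16734 genes of the whole table. A sparse member, such as Pcdhb21 below, could pass that minimum through the library in which it was high.

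With passage in DPCs, 13 of the 44 members were at least 4-fold higher at passage 9, where 5.58% of all genes tested were, and 3 were at least 4-fold lower, where 4.36% were. The 13 were Pcdha4, 5 beta genes, 5 gamma A and B genes and the type C genes Pcdhgc3 and Pcdhgc5, and the 3 lower genes were Pcdhga2, Pcdhgb8 and the first of 2 rows named Pcdha11. With passage in DSCs, 5 members were at least 4-fold higher, against 2.67% of all genes, and 4 were at least 4-fold lower, against 1.16%. Those higher were Pcdha12, Pcdhb21, Pcdhgb2, Pcdhgb5 and Pcdhgb8, and those lower were Pcdha4, Pcdhb22, Pcdhga8 and Pcdhgc4. Only Pcdhgb2 and Pcdhgb5 of the 44 members were 4-fold higher in both cell types, against 1.27% of all genes, and 0 members were 4-fold lower in both, against 0.508%.

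**Figure D1:**
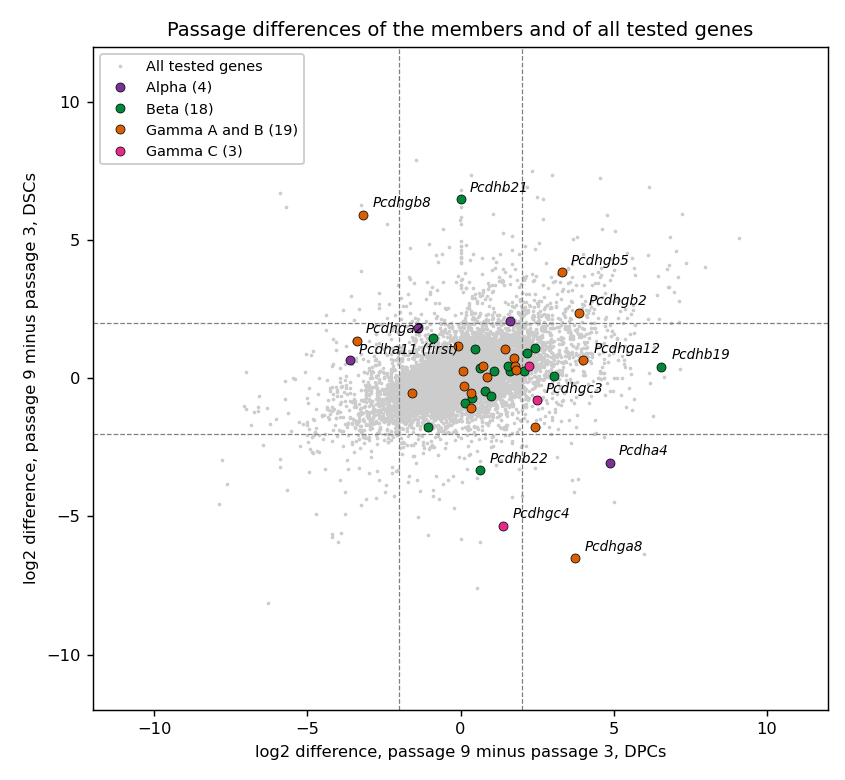
Each point is a gene, placed by its log2 difference between passage 9 and passage 3 in DPCs (horizontal axis) and in DSCs (vertical axis), with all 16734 tested genes in grey, the 44 tested protocadherins in colour by cluster and dashed lines at 4-fold. Pcdhgb2 and Pcdhgb5 lie beyond the lines at the upper right, whereas Pcdhgb8 at the upper left and Pcdha4 and Pcdhga8 at the lower right changed in opposite directions in the cell types.

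The median log2 difference between passages in DPCs was 0.87 over the 19 gamma A and B genes, 2.23 over the 3 gamma C genes and 0.90 over the 18 beta genes, compared with 0.03 over all genes tested. In DSCs the medians were 0.44, -0.78 and 0.28, compared with 0.00 over all genes tested. Sizes of change were also spread more widely than in the table as a whole. The median absolute log2 difference of the gamma A and B genes was 1.74 in DPCs and 0.75 in DSCs, against 0.62 and 0.34 over all genes. The counting interval left out 0 for 36 of 44 members in DPCs, against 77.6% of all genes tested, and for 35 in DSCs, against 66.7%.

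The leading gamma isoform was a different gene in each library, by length-scaled level and by count. Length-scaled levels (FPKM) were used to compare genes with each other. In low-passage DPCs, Pcdhga2 alone made up 51.3% of the summed gamma FPKM, and by this measure no type A gene led another library. High-passage DPCs were led by Pcdhgb2 with 26.2%, followed by Pcdhgc3 with 17.6% and Pcdhga12 with 14.8%. By counts Pcdhga12, with 16.7%, came before Pcdhgc3, with 13.9%. Pcdhgc3 also came among the leaders of the low-passage DSCs. They were led by Pcdhgc4 with 30.5%, followed by Pcdhga7 with 17.3% and Pcdhgc3 with 13.2%. In high-passage DSCs the leaders were Pcdhgb8 with 23.1%, Pcdhgb2 with 20.8% and Pcdhgb5 with 10.6%.

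**Figure D2:**
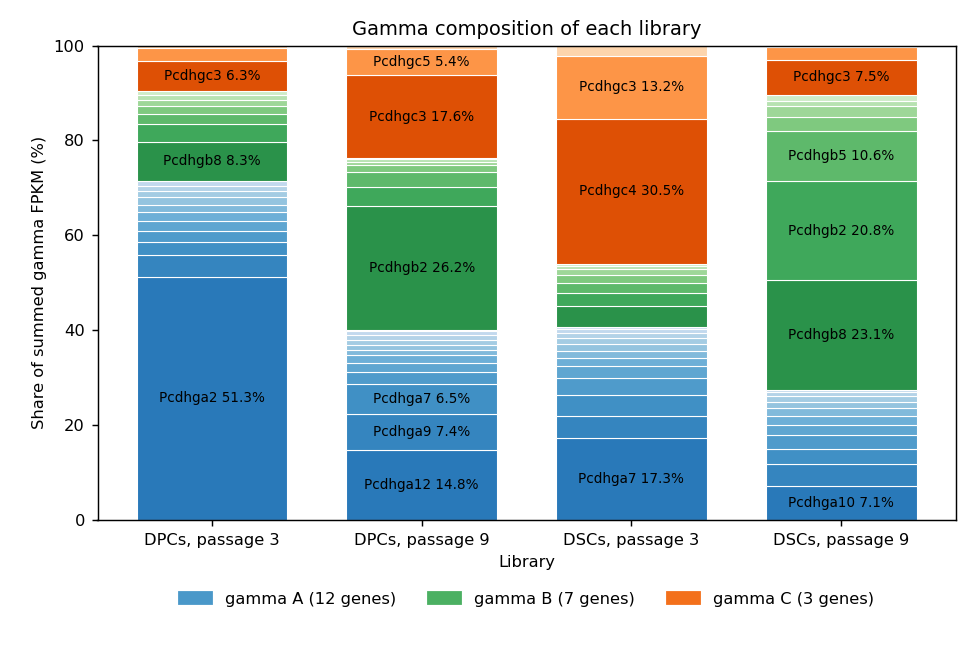
Stacked bars give the share of each gamma gene in the summed gamma FPKM of each library (vertical axis, %), with type A genes in blue, type B in green and type C in orange, and genes of at least 5% named. Type A filled 71.5% of the low-passage DPC bar, type B 62.1% of the high-passage DSC bar and type C 45.9% of the low-passage DSC bar (35.8% by counts).

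By type, gamma A genes held 71.5% and 40.0% of the gamma FPKM in DPCs and 40.8% and 27.5% in DSCs. Gamma B genes held 18.9% and 36.2% in DPCs and 13.3% and 62.1% in DSCs. Gamma C genes held 9.62% and 23.8% in DPCs and 45.9% and 10.4% in DSCs. The type C share of low-passage DSCs rests on the short length implied for Pcdhgc4 there, described below, and by counts type A held 48.5% and type C 35.8% of that library. By FPKM and by counts, the type B share was higher at passage 9 in both cell types, whereas the type C share moved in opposite directions with passage.

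The evenness of gamma use was summarised by the effective number of genes, the inverse of the sum of squared shares, which equals 22 when all genes are level. It was 3.54 and 7.19 in DPCs and 6.59 and 7.90 in DSCs. By counts in place of FPKM it was 3.42 and 7.20 in DPCs and 8.76 and 7.87 in DSCs, so the direction in DSCs turned. The low-passage DPC library was thus the least even, through Pcdhga2. Over the 22 gamma genes, Spearman's rho between pairs of libraries ranged from -0.07 to 0.54, as a description across genes that share constant exons. The same measure ranged from 0.62 to 0.89 over the beta genes and from 0.917 to 0.969 over all genes tested.

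Among the gamma A genes, Pcdhga2 stood apart. Its counts were 11004 and 1021 in DPCs and 331 and 1028 in DSCs. Its level was 10.5-fold lower at passage 9 than at passage 3 in DPCs (log2 difference -3.39, interval -3.49 to -3.30) and 34.3-fold lower in DSCs than in DPCs at passage 3 (log2 -5.09). The high value belonged to a single library, and the other 3 libraries lay between 8.73 and 28.5 CPM.

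Pcdhga12 was the counterpart in high-passage DPCs. Its counts were 445 and 7008 in DPCs and 415 and 789 in DSCs. The passage difference in DPCs was 16.1-fold (log2 4.01, interval 3.87 to 4.15), and in DSCs it was 1.58-fold. A like pattern of a single high library was seen for Pcdhga8, with 8 and 128 counts in DPCs and 1245 and 14 in DSCs, where low-passage DSCs stood 151-fold above low-passage DPCs (log2 6.94, interval 6.26 to 8.45).

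Pcdhga7 and Pcdhga9 split the libraries differently. Pcdhga7 had 524 and 2762 counts in DPCs and 4475 and 1599 in DSCs, so that its level was 5.41-fold higher at passage 9 in DPCs and 3.36-fold lower at passage 9 in DSCs. Pcdhga9 had 959 and 3258 counts in low- and high-passage DPCs and 108 and 161 in low- and high-passage DSCs. The DPC libraries were therefore above the DSC libraries at both passages, 9.15-fold at passage 3 (log2 -3.17, DSCs minus DPCs) and 25.7-fold at passage 9 (log2 -4.66). Pcdhga9 was the gamma gene whose level separated the cell types by more than 4-fold in the same direction at both passages.

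Pcdhga10 had 523 and 479 counts in DPCs and 943 and 2520 in DSCs and differed 4.14-fold between the cell types at passage 9, with DSCs higher (log2 2.05, interval 1.91 to 2.19). Its exons and those of Pcdhgb7, Pcdhga11 and Pcdhga12 overlap the gene Gm26672 on the opposite strand, which had 276 and 9 counts in DPCs and 403 and 327 in DSCs. Those of Pcdhga7 and Pcdhga8 overlap Gm37165, also on the opposite strand, with 0 and 42 counts in DPCs and 12 and 14 in DSCs. Opposite-strand genes also overlap exons of Pcdha4 (Gm38225), Pcdha12 (Gm10545), Pcdhb12 (Gm37446), Pcdhga1 (Gm37118) and Pcdhgc3 (BC037039). Neither library kit named in the sources marks strand, so reads of a gene and of its opposite-strand partner cannot be told apart.

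The gamma B genes supplied both members that were 4-fold higher with passage in each cell type. Pcdhgb2 had 792 and 11363 counts in DPCs and 1157 and 7234 in DSCs. It was 14.7-fold higher at passage 9 in DPCs (log2 3.88, interval 3.77 to 3.98) and 5.20-fold higher in DSCs (log2 2.38, interval 2.29 to 2.47). Pcdhgb5, with 179 and 1736 counts in DPCs and 212 and 3706 in DSCs, was 9.95-fold higher in DPCs (log2 3.30) and 14.5-fold higher in DSCs (log2 3.85). For both genes the passage 3 libraries of the 2 cell types lay close together and both passage 9 libraries lay above them.

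Pcdhgb8 changed in opposite directions. It had 1747 and 187 counts in DPCs and 108 and 8008 in DSCs. At passage 9 it was 9.11-fold lower in DPCs (log2 -3.17, interval -3.41 to -2.97) and 61.7-fold higher in DSCs (log2 5.92, interval 5.67 to 6.23). The ratio of count to FPKM gives the transcript length that the deposited values imply, and for Pcdhgb8 it was 3162 bases in high-passage DPCs and 4543 to 4600 bases in the other libraries. The annotation lists a Pcdhgb8 transcript of 2796 bases.

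Other gamma genes had narrow spans over the libraries. Pcdhgb6 had 404 and 656 counts in DPCs and 474 and 775 in DSCs and spanned 1.67-fold between its lowest and highest library. Pcdhgb7 spanned 1.69-fold, Pcdhga3 1.81-fold and Pcdhga1 1.84-fold. Such genes lay beside others with wide spans, as in the case of Pcdhgb6, whose neighbours in gene order are Pcdhga9, with a 31.9-fold span, and Pcdhga10, with a 4.14-fold span. Over the 19 gamma A and B genes, Spearman's rho between gene order and FPKM ranged from -0.33 to 0.13 in the 4 libraries.

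**Figure D3:**
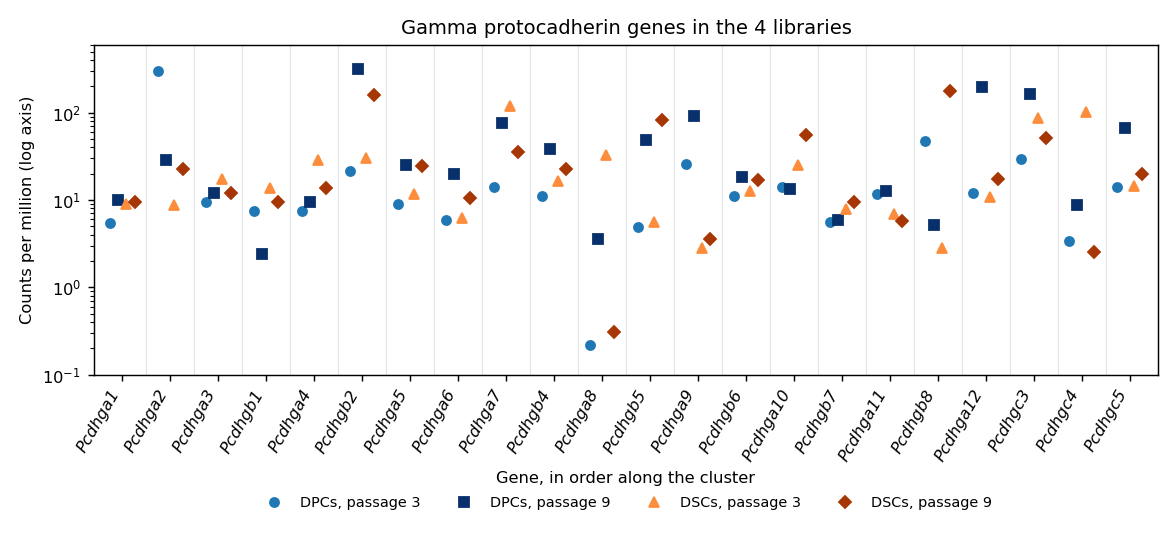
The level of each of the 22 gamma genes (CPM, log axis) is shown in gene order, with 1 point for each of the 4 libraries. Pcdhga2, Pcdhga8, Pcdhgb8, Pcdhga12 and Pcdhgc4 each have a library far above most others, whereas Pcdhgb6, Pcdhgb7, Pcdhga1 and Pcdhga3 have all 4 points within 2-fold.

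The gamma C genes were followed separately because they differ from the A and B genes in sequence and regulation. Together they summed to 46.8 and 239 CPM in DPCs and 205 and 73.1 in DSCs. The sum was 5.11-fold higher with passage in DPCs (log2 2.35, interval 2.28 to 2.43) and 2.81-fold lower with passage in DSCs (log2 -1.49, interval -1.55 to -1.43). In DSCs Pcdhgc4, whose short implied length is described below, was 41.2-fold lower, Pcdhgc3 1.72-fold lower and Pcdhgc5 1.37-fold higher. A gamma C sum without Pcdhgc4 was not taken. Over the A and B genes the sum was higher with passage in both cell types, by 1.78-fold in DPCs (log2 0.83) and 1.86-fold in DSCs (log2 0.90). Without Pcdhga2, the DPC value of the A and B sum was 2.01 on the log2 scale, and without Pcdhgb2 it was 0.29.

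Pcdhgc3, the most broadly expressed gamma C isoform, had 1076 and 5864 counts in DPCs and 3335 and 2326 in DSCs. It was 5.59-fold higher at passage 9 in DPCs and 1.72-fold lower at passage 9 in DSCs. Its implied transcript length was 3687 and 3570 bases in DPCs and 4527 and 4139 in DSCs. Pcdhgc5 had 524 and 2399 counts in DPCs and 544 and 893 in DSCs and was 4.69-fold higher at passage 9 in DPCs and 1.37-fold higher in DSCs. Both were thus highest in high-passage DPCs.

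Pcdhgc4, an isoform known for its role in the survival of cortical interneurons, was high in low-passage DSCs. Its counts were 123 and 318 in DPCs and 3906 and 114 in DSCs. The low-passage DSC level was 30.8-fold above that of low-passage DPCs (log2 4.92, interval 4.69 to 5.22) and 41.2-fold above that of high-passage DSCs (log2 -5.34, passage 9 minus 3, interval -5.65 to -5.09). In that library the implied transcript length was 2289 bases, against 4651 to 4711 bases in the other 3. The annotation lists a Pcdhgc4 transcript of 2272 bases, of which 93.3% is constant exon, the sequence that the gamma genes share. By counts rather than FPKM, Pcdhga7 led this library with 20.6% of gamma counts and Pcdhgc4 held 18.0%.

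A further gene model, Gm38182, overlaps the gamma genes over all of its 1530 exonic bases and is no member by its symbol. It had 10 and 0 counts in DPCs and 84 and 866 in DSCs. Adding it to the gamma C sum gave a passage difference in DSCs of -1.17 on the log2 scale, in place of -1.49. The gene models Gm37013, Gm37388 and Gm42416 also overlap the gamma genes on the same strand, and Gm42416 overlaps Pcdha4 as well.

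The beta genes have no constant exons, so their counts do not depend on how reads on such exons were assigned, although how reads matching several similar genes were handled was not given either. Their sum was 2.73-fold higher at passage 9 in DPCs (log2 1.45, interval 1.36 to 1.55) and 1.22-fold higher in DSCs (log2 0.29, interval 0.21 to 0.37). Of the 18 tested genes, 10 were highest in high-passage DPCs and 13 were lowest in low-passage DPCs, where over all tested genes those shares were 34.4% and 27.8%.

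Pcdhb17 had 245 and 711 counts in DPCs and 400 and 655 in DSCs and led the beta FPKM in 3 libraries, with 20.6% in both low-passage libraries and 23.2% in high-passage DSCs. Pcdhb5 led in high-passage DPCs with 24.0%. It had 75 and 622 counts in DPCs and 95 and 120 in DSCs and was 8.50-fold higher at passage 9 in DPCs (log2 3.06, interval 2.74 to 3.45) and 1.05-fold higher in DSCs. Pcdhb5 was thus high in a single library.

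Differences of at least 4-fold with passage in DPCs were also found for neighbouring genes toward the 3′ end of the beta cluster. Pcdhb18 had 71 counts in low-passage and 321 in high-passage DPCs, a 4.64-fold difference, and Pcdhb20 had 46 and 249, a 5.55-fold difference. Pcdhb19, which lies between them, had 0 and 168 counts in DPCs and 132 and 213 in DSCs. Against a floor of 3 counts in place of the 0, it was 57.4-fold higher in high- than in low-passage DPCs. The lower limit of its counting interval was 5.53 on the log2 scale, or 4.51 with halved counts. Both of its neighbours were counted in low-passage DPCs. The sparse gene Pcdhb9 had 7 and 35 counts in DPCs and 10 and 15 in DSCs and differed 5.13-fold with passage in DPCs (log2 2.09, interval 1.17 to 3.77).

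In DSCs the beta changes past 4-fold on the log2 difference lay at the last genes of the cluster. Pcdhb11, with 16 and 4 counts in DSCs, was 4.81-fold lower on scaled counts but had a log2 difference of -1.77. Pcdhb22 had 290 and 443 counts in DPCs and 408 and 47 in DSCs, a level 10.4-fold lower at passage 9 in DSCs (log2 -3.32, interval -3.85 to -2.94). Pcdhb21 had 208 counts at passage 9 in DSCs and 0 in the other 3 libraries. Against the floor of 3 counts at passage 3 it was 57.7-fold higher, with a lower limit of the counting interval of 5.54 on the log2 scale, or 4.53 with halved counts. The gene models of Pcdhb21 and Pcdhb22 overlap by 455 bases on the same strand. Summed, the pair had 290 and 443 counts in DPCs and 408 and 255 in DSCs, a 1.92-fold lower level with passage in DSCs (log2 -0.94, interval -1.17 to -0.71). How much of the opposite change of these genes lies in the assignment of reads between them was not tested.

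Pcdhb12 had 13 and 6 counts in DPCs and 18 and 64 in DSCs and was 8.40-fold higher in DSCs than in DPCs at passage 9 (log2 2.74, interval 1.87 to 4.57). By contrast, Pcdhb16 was among the steadiest of the family, with 188 and 289 counts in DPCs and 252 and 396 in DSCs and a 1.70-fold span. The 10 genes from Pcdhb13 to Pcdhb22 held 78.7% and 66.7% of the beta FPKM in DPCs and 79.1% and 82.7% in DSCs, and the 12 genes from Pcdhb1 to Pcdhb12 held the rest. The effective number of beta genes was 8.58 and 7.36 in DPCs and 9.48 and 9.08 in DSCs, and so varied less between libraries than that of the gamma genes. By counts it was 7.23 and 7.88 in DPCs and 8.28 and 7.98 in DSCs, so the direction in DPCs turned.

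**Figure D4:**
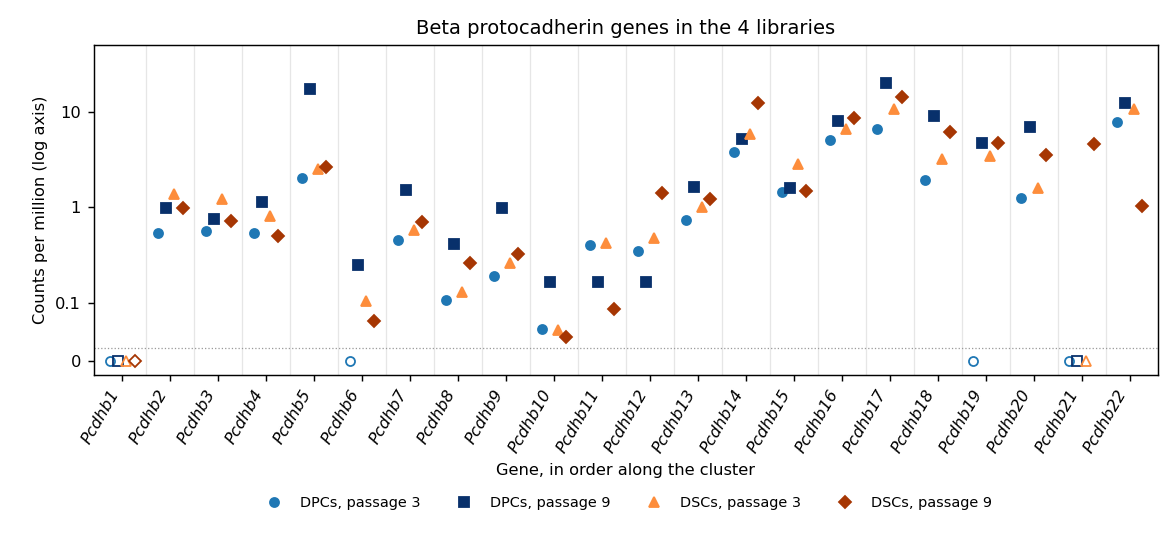
The level of each of the 22 beta genes (CPM, log axis) is shown in gene order, with 1 point for each library and open symbols on the line marked 0 where no read was counted. The order of levels is kept in part across libraries (Spearman's rho of FPKM 0.62 to 0.89). Pcdhb5 is high in high-passage DPCs, Pcdhb19 is at 0 in low-passage DPCs, and Pcdhb21 is counted in high-passage DSCs alone.

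The alpha genes were sparse, and their sum was 2.23-fold higher with passage in DPCs (log2 1.16, interval 0.87 to 1.45) and 1.03-fold higher in DSCs (log2 0.04, interval -0.33 to 0.41). Most of the difference came from Pcdha4, which had 4 and 167 counts in DPCs and 83 and 10 in DSCs. It was 42.8-fold higher at passage 9 in DPCs (log2 4.88, interval 4.04 to 7.31) and 9.97-fold lower in DSCs (log2 -3.05, interval -4.43 to -2.37). Without Pcdha4, the log2 difference of the alpha sum was 0.10 in DPCs and 1.92 in DSCs.

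Pcdha12 had 38 and 118 counts in DPCs and 4 and 28 in DSCs. It was lower in DSCs than in DPCs at both passages, by 9.79-fold at passage 3 (interval -5.24 to -1.82, DSCs minus DPCs) and 5.35-fold at passage 9 (interval -3.07 to -1.82). Its passage difference in DSCs was 2.09 on the log2 scale (interval 1.03 to 4.51). That difference fell short of 4-fold with a prior count of 10 (1.27) and on FPKM with a pseudocount of 0.1 (0.76). The first row named Pcdha11 (ENSMUSG00000007440) had 46 and 2 counts in DPCs and 12 and 24 in DSCs, a ratio of 0.0446 between passages in DPCs (log2 difference -3.60, interval -7.58 to -2.55). A second gene identifier (ENSMUSG00000102206) carries the same symbol, and its row had 0 counts in 3 libraries and 27 in high-passage DSCs. The type C gene Pcdhac2 had 35 and 12 counts in DPCs and 9 and 44 in DSCs, and its log2 difference with passage was -1.38 in DPCs and 1.82 in DSCs. Pcdha4 and Pcdha12 were highest in high-passage DPCs, the first Pcdha11 row in low-passage DPCs and Pcdhac2 in high-passage DSCs.

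The cell types were also compared at each passage, with the same 4 libraries as in the passage comparisons. At passage 3, 5 members were at least 4-fold higher in DSCs, against 2.77% of all genes tested, namely Pcdha4, Pcdhb19, Pcdhga7, Pcdhga8 and Pcdhgc4. The 4 that were 4-fold lower in DSCs, against 1.52%, were Pcdha12, Pcdhga2, Pcdhga9 and Pcdhgb8. At passage 9, 5 members were 4-fold higher in DSCs, against 3.91%, and 7 were 4-fold lower, against 2.5%. Those higher were the first Pcdha11 row, Pcdhb12, Pcdhb21, Pcdhga10 and Pcdhgb8, and those lower were Pcdha4, Pcdha12, Pcdhb5, Pcdhb22, Pcdhga8, Pcdhga9 and Pcdhga12. Pcdha12 and Pcdhga9 were on the same side at both passages, and Pcdha4, Pcdhga8 and Pcdhgb8 changed sides.

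Across all 4 libraries, 24 of the 44 tested members spanned at least 4-fold between their lowest and highest library, where 17.5% of all genes tested did. These were 3 of 4 alpha, 8 of 18 beta, 10 of 19 gamma A and B, and 3 of 3 gamma C genes. With a mean of at least 100 counts, the numbers were 18 of 30 members and 10.9% of 12192 genes. The median log2 span was 2.05 over the gamma A and B genes and 1.73 over the beta genes, compared with 0.92 over all genes tested and 0.74 over those with at least 100 counts.

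**Figure D5:**
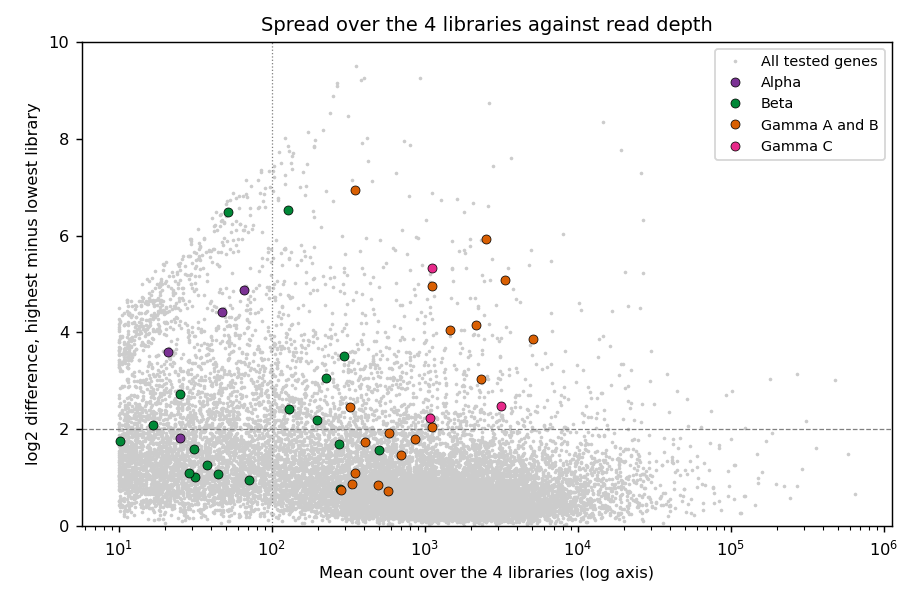
Each point is a gene, placed by its mean count over the 4 libraries (horizontal log axis) and by the log2 difference between its highest and lowest library (vertical axis), with all tested genes in grey and the protocadherins in colour. The dashed line marks 4-fold and the dotted line a mean of 100 counts, and 18 of the 30 protocadherins to the right of the dotted line lie above the dashed line.

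Genes near the cluster were listed for comparison. Within 500 kb of the members' span lay 65 other rows of the table, of which 36 were tested. With passage in DPCs 4 of these were 4-fold higher, against 5.58% of all genes tested, and 2 were 4-fold lower, against 4.36%, whereas in DSCs 2 were higher, against 2.67%, and 1 was lower, against 1.16%. Of the 26 tested protein-coding rows among them, 3 were higher in DPCs and 1 in DSCs, and 0 were lower in either. The 3 in DPCs were Dnd1, Eif4ebp3 and E230025N22Rik. Taf7, a general transcription factor gene that lies between the beta and gamma clusters, had 139 and 118 counts in DPCs and 120 and 217 in DSCs.

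Known regulators of the cluster were likewise examined as a list of 26 genes, all of which were tested. Uhrf1, which recruits the maintenance DNA methyltransferase, had 1427 and 217 counts in DPCs and 1182 and 528 in DSCs and was the 1 gene of the list that was 4-fold lower with passage in DPCs (log2 -2.67), its log2 difference in DSCs being -1.42. None of the 26 was 4-fold higher in either cell type, and 0 were 4-fold lower in DSCs. Of all genes tested, 5.58% were 4-fold higher and 4.36% lower in DPCs, and 2.67% and 1.16% in DSCs. After Uhrf1, the largest difference in DPCs was that of Lrif1 (log2 1.36), which in DSCs was 0.02. The log2 differences in DPCs and DSCs were 0.17 and -0.13 for Ctcf, which encodes the architectural factor bound at the promoters, 0.10 and -0.16 for Smchd1, a chromatin repressor of the cluster, -1.04 and -0.05 for the de novo methyltransferase gene Dnmt3a, and 0.87 and -0.01 for the cohesin loader gene Nipbl.

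Partners and processing enzymes of the proteins, 24 genes that include the kinase gene Ptk2, the protease gene Adam10 and the WAVE complex genes, were all tested, and 0 were past 4-fold with passage in either direction in either cell type. The shares over all genes tested were 5.58% higher and 4.36% lower in DPCs, and 2.67% and 1.16% in DSCs. The receptor kinase gene Ret was higher in DSCs than in DPCs, by 2.10 at passage 3 and 3.59 at passage 9 on the log2 scale.

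The non-clustered protocadherins and large cadherins served as a comparison of like genes outside the cluster. Of 21 listed genes 15 were tested, and with passage in DPCs 2 were 4-fold higher, against 5.58% of all genes tested, and 1 was lower, against 4.36%, whereas in DSCs 1 was higher, against 2.67%, and 0 were lower, against 1.16%. Dchs1, a ligand of the Fat cadherins, had 166 and 8356 counts in DPCs and 89 and 1746 in DSCs and was past 4-fold higher with passage in both cell types (log2 5.67 in DPCs). Celsr2 had 80 and 343 counts in low- and high-passage DPCs (log2 2.11), and Pcdh11x had 148 and 19 (log2 -2.81).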

How the data were processed

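The authors deposited whole-number read counts per gene and FPKM values (fragments scaled by length and depth) for the same 4 libraries of paired-end poly(A) RNA. The submitters' processing notes name Bowtie 0.12.2 and the builds mm8 and mm9 with no role, whereas the positions in the deposited count table are those of GRCm38. The counting tool was not given in the sources used here. In the labels the kit is Illumina TruSeq, and in the study's methods it is NEBNext Ultra. More genes had 2 counts (1339 to 1541) than 3 (558 to 607) in every library, as counting both mates of a pair would give, in which case a count of 0 allows 6 counts.

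Groups followed the labels, with 1 library each. Counts were scaled with TMM factors (edgeR 4.0.16, R 4.3.3) from genes with a mean of at least 10 counts, converted to log2 CPM with a prior count of 2 and called at 4-fold, with no p-values. Intervals are exact binomial (scipy 1.17.1). Shares and effective numbers used the deposited FPKM. Exon overlaps came from GENCODE M21. The steps were tested on simulated data. Named members were those tested that passed 4-fold in any contrast, the 5 beta genes and the alpha, gamma A and gamma B gene with the highest mean FPKM, and all type C genes. Genes with narrow spans, spans over the 4 libraries, genes at 0, Gm38182 and other genes that overlap members were named after the values were seen. From each other list at most 5 genes with the largest change were named, apart from the cell type markers, which were not named by that rule. Ctcf, Smchd1, Nipbl, Dnmt3a and Taf7 were chosen for their known role or place. Members and lists were chosen with earlier results of these data known. Alternatives were DESeq2 1.42.0 size factors, upper quartile and total scaling, another prior count, filters, FPKM and sums without or with single genes.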

Additional observations from a re-analysis of the deposited data

Results flagged for a closer look

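For 3 of the 44 tested members DPCs and DSCs differed in the direction of a passage difference that was past 4-fold in each, compared with 36 of 16734 genes tested (0.215%). The difference between the cell types, DPCs minus DSCs, was 7.93 on the log2 scale for Pcdha4 (4.88 and -3.05), 10.27 for Pcdhga8 (3.75 and -6.52) and -9.10 for Pcdhgb8 (-3.17 and 5.92). With 1 library in each group the difference was not tested. Each of these genes shares its constant exons with other members, and each has a library with at most 187 counts on both sides of the comparison. On deposited FPKM with a pseudocount of 0.1, Pcdha4 gave 2.91 in DPCs and -1.63 in DSCs, the latter short of 4-fold. Pcdhga8 (2.48 and -5.33) and Pcdhgb8 (-2.58 and 5.67) stayed past 4-fold in both.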

How the results depend on the processing

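In each of the 4 comparisons, total, DESeq2 and upper-quartile scaling kept the counts of members past 4-fold within 1.5 times of those reported and shifted the median of all genes by at most 0.10 on the log2 scale. Other settings moved 2 counts. With a mean count of at least 100, where fewer genes were tested, 3 in place of 5 members were higher at passage 9 in DSCs and 2 in place of 5 were higher in DSCs than in DPCs at passage 9. That latter count was 3 with a prior count of 10 and 2 on deposited FPKM with a pseudocount of 0.1. Passage differences of the sums, on the log2 scale, kept their direction throughout. With summed FPKM they were 1.55 for beta and 0.81 for gamma A and B in DPCs, and 0.86 for gamma A and B and -2.01 for gamma C in DSCs, and with total scaling gamma A and B in DSCs gave 0.87. Sums without or with single genes were chosen after seeing the data. Without Pcdha4, alpha gave 0.10 in DPCs and 1.92 in DSCs. Gamma A and B gave 0.29 in DPCs and 0.64 in DSCs without Pcdhgb2, and 2.01 in DPCs without Pcdhga2. Gamma C gave 2.11 in DPCs and -2.41 in DSCs without Pcdhgc3, and -1.17 in DSCs with Gm38182. By counts in place of FPKM, also chosen after seeing the data, the effective number of beta genes was 7.23 and 7.88 in DPCs and 8.28 and 7.98 in DSCs. That of gamma genes was 8.76 in low-passage DSCs, the library with the short Pcdhgc4 length, and 7.87 in high-passage DSCs. The direction with passage thus turned for beta genes in DPCs and for gamma genes in DSCs. The cause of the other shifts was not tested. With halved counts, as counting both mates would need, the interval left out 0 for 34 of 44 members in DPCs, against 69% of all genes tested, and 30 in DSCs, against 55.7%. Of the named members' 52 passage differences, 16 left their counting interval on FPKM and 7 with the larger prior, and 0 with total scaling. Leaving out a library was not possible with 1 per group. Depth limits the alpha genes and Pcdhb1 to Pcdhb12 most.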
